A study of Homo sapiens with 19 samples.

Results

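The basement membrane genes described here are 10 of the 33382 genes listed for each sample of the series, found by their gene symbols. They encode the laminin alpha chains LAMA1, LAMA2, LAMA3, LAMA4 and LAMA5, the beta chains LAMB1 and LAMB2, the gamma chain LAMC1, nidogen 1 (NID1) and perlecan (HSPG2), and each symbol was found once, under the same identifier, in all 19 samples. The samples came from H1, an established human embryonic stem cell (hESC) line, in which the core genes of polycomb repressive complex 2 (PRC2) had been deleted. There were 2 samples of unedited cells (WT H1) and 2 of each knockout, namely EZH1-/-, EZH2-/-, both together (EZH2-/-/EZH1-/-), SUZ12-/- and EED-/-. EED-/-/EED-OE H1 cells have lost their own EED gene and express EED from a lentivirus in the presence of doxycycline (DOX). For them 1 sample was taken under DOX and 1 on days 8, 12, 16, 20, 24 and 28 without it, and the title of the DOX sample also carries day 28. EZH1 and EZH2 are the alternative methyltransferases of PRC2, while EED and SUZ12 are subunits that it cannot work without. The knockouts of EED, of SUZ12 and of both methyltransferases are therefore called the PRC2-null lines, and WT, EZH1-/- and EZH2-/- H1, which keep at least 1 of the methyltransferases, the PRC2-retaining lines. According to the methods, cells were kept on plates coated with Matrigel, itself an extract of basement membrane, so the RNA values given here are of what the cells transcribed and not of the matrix around them. The targeting removed a functional domain of each gene by CRISPR/Cas9 and homologous recombination. Samples of the same knockout differ in the endings of their titles, which are not explained. The study worked with more than a single homozygously targeted clone of each gene, but which clone or culture each sample came from is not stated, so p-values measure only the spread between these samples, which may be technical.

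Basement membranes are thin sheets of matrix under epithelia and around endothelium, muscle and nerve. A laminin is a trimer of 1 alpha, 1 beta and 1 gamma chain, and the alpha chain carries the main binding sites for integrins and dystroglycan. Nidogen bridges the laminin network to the collagen IV network, and perlecan is a large heparan sulphate proteoglycan that binds both and stores growth factors. The trimer of LAMA1, LAMB1 and LAMC1 is the laminin of the earliest embryonic basement membranes and of the yolk sac, LAMA5 takes the place of LAMA1 in many later tissues and in pluripotent cells, LAMA4 is typical of blood vessels and mesenchyme, LAMA2 of muscle and peripheral nerve, and LAMA3, with LAMB3, of skin and other epithelia.

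On GRCh38, in GENCODE release 44, LAMA1 lies on chromosome 18 (6941742 to 7117797, minus strand), LAMA3 on chromosome 18 (23689453 to 23956222, plus strand), LAMA2 on chromosome 6 (128883138 to 129516566, plus strand) and LAMA4 on chromosome 6 (112107931 to 112254939, minus strand). LAMA5 is on chromosome 20 (62307955 to 62367312, minus strand), LAMB1 on chromosome 7 (107923799 to 108003213, minus strand) and LAMB2 on chromosome 3 (49121114 to 49133118, minus strand). LAMC1 (183023420 to 183145592, plus strand), NID1 (235975830 to 236065109, minus strand) and HSPG2 (21822244 to 21937310, minus strand) are all on chromosome 1. The protein-coding genes ADRM1, DLD and LDLRAD2 overlap LAMA5, LAMB1 and HSPG2 on the opposite strand, and LAMA4-AS1, LAMA5-AS1 and LAMC1-AS1 lie antisense to their namesakes, with at most 3.0 TPM in any sample. ADRM1 ran from 91.84 to 368.35 TPM, around and above the level of LAMA5 itself, DLD ran from 36.88 to 90.73 TPM, and a gene without a name that also overlaps LAMB1 reached 34.6 TPM. No source used here states that reads were counted by strand, so reads from exons shared by such a pair cannot be told apart.

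Promoter windows of 300 bases, from 250 before to 50 after the transcription start, were taken from RefSeq on GRCh38.p14 for 9 members, all but LAMA1. Those of LAMA3 (chr18:23872770-23873069) and LAMA4 (chr6:112254518-112254817) lie inside the gene spans given above and not at their 5′ ends. What is said of these windows need not hold for the start of the longest transcript. The windows are shown because those of the members that moved together in the PRC2-null lines were not of one kind. The windows of HSPG2, LAMA5, LAMC1, NID1 and LAMB1 held 44, 41, 41, 36 and 35 CpG dinucleotides, whereas those of LAMB2, LAMA3, LAMA2 and LAMA4 held 15, 13, 10 and 8, around a median of 14 over 35116 windows of this length. GC content ran from 51.3% in LAMA4 to 83.3% in HSPG2. The GC box GGGCGG was searched on both strands and was found in 7 of the 9 windows, beside 45.0% of all windows, with 10 matches in HSPG2 and 4 in LAMB1, some of them overlapping, and none in LAMA2 and LAMA4. Of the GATA motifs AGATAA and TGATAA, also searched on both strands, AGATAA was found once, in LAMA4 (10.3% of all windows hold it), and TGATAA in no member (7.5% of all windows). A match is a run of letters and not a site shown to be bound. The windows of LAMB1 and HSPG2, which are rich in CpG, and of LAMA4, which is not, belong to genes that rose in all 3 PRC2-null lines, and that of LAMA2 to a gene that rose in SUZ12-/- H1. In the sequences, given 5′ to 3′ on the strand of the gene, capitals mark matches to these motifs on either strand.
LAMB1, chr7:108003112-108003411, minus strand: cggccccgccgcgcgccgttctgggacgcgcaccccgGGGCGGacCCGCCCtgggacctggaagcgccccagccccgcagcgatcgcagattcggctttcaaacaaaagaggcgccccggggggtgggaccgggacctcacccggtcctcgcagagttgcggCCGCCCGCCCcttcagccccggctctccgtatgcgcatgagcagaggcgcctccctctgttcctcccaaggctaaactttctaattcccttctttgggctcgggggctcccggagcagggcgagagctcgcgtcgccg
HSPG2, chr1:21937261-21937560, minus strand: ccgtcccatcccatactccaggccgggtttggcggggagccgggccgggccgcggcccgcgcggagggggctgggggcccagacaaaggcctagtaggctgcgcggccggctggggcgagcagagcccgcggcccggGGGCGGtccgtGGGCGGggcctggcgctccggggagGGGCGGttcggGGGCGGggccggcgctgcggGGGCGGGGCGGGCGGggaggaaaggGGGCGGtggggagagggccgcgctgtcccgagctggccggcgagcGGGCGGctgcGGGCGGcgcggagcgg
LAMA4, chr6:112254518-112254817, minus strand: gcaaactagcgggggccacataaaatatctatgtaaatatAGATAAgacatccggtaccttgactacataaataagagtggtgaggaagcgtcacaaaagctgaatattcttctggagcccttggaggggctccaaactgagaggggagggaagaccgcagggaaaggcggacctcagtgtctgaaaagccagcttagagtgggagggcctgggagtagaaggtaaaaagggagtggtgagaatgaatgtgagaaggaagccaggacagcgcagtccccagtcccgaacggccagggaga
LAMA2, chr6:128882888-128883187, plus strand: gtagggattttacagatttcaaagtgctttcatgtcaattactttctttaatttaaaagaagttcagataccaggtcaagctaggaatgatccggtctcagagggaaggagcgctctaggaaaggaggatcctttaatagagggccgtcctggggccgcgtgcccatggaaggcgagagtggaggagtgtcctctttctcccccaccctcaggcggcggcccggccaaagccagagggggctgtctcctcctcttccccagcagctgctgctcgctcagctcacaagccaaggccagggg

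Levels are given as TPM, the unit that the authors deposited, an abundance corrected for gene length and scaled to the same total in each sample, so that levels of different genes can be compared. The number of genes above 0 TPM ran from 20350 to 23012 in the 12 samples of the lines and from 19117 to 20107 in the 7 of EED-/-/EED-OE H1. Read depths are unknown, and precision rests on the replicates. Over all genes tested, the median absolute difference between the 2 samples of a line was between 0.128 (SUZ12-/- H1) and 0.505 (EZH2-/-/EZH1-/- H1) on the log2(TPM + 1) scale, so EZH2-/-/EZH1-/- H1 rests on the least similar pair. The targeted genes were not absent from their own knockouts. EED was at 14.25 and 22.36 TPM in EED-/- H1 against 17.30 and 21.96 in WT H1, SUZ12 at 20.76 and 22.94 in SUZ12-/- H1 against 25.21 and 27.89, EZH1 at 12.49 and 17.07 in EZH1-/- H1 against 13.71 and 14.29, and EZH2 at 22.02 and 46.94 in EZH2-/- H1 against 54.55 and 58.89. A TPM over the whole gene counts what is left of the transcript and does not check the deletion of a domain. In EED-/-/EED-OE H1 cells, EED was at 108.54 TPM with DOX and between 12.64 and 31.56 at the days without it. The hESC marker POU5F1 was at 2428.15 to 3456.09 TPM in the PRC2-retaining lines and at 3.62 to 149.79 in the PRC2-null lines although all are labelled as embryonic stem cells.

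In all 3 PRC2-null lines LAMB1, LAMA1 and LAMA4 rose by at least 3-fold, together with LAMB2 and HSPG2, and in the lines that lack a single methyltransferase no member passed the test. The 10 genes summed to between 304.51 and 437.25 TPM in the 6 PRC2-retaining samples and to between 1353.36 and 2712.15 in the 6 PRC2-null samples. A gene was called when its limma test across 19100 genes passed a false discovery rate (FDR, Benjamini-Hochberg) of 1% and its level differed at least 3-fold on the log2(TPM + 1) scale, a log2 fold change of 1.585. This scale understates the change of genes of low level such as LAMA2 and LAMA4. In EED-/- H1 6 of the 10 members were called higher than in WT H1, where 16.2% of all genes tested were called higher. In SUZ12-/- H1 7 of the 10 were, beside 14.5% of all genes, and in EZH2-/-/EZH1-/- H1 5 of the 10, beside 11.6%. In these lines 0 were called lower, beside 6.09%, 5.21% and 5.66% of all genes, in that order. These comparisons share the WT H1 samples and are not independent of one another. The median log2 fold change of the members was 2.18, 1.76 and 1.63 in these lines, in that order, beside 0.36, 0.22 and 0.19 over all genes tested.

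Between the averages of the PRC2-null and the PRC2-retaining lines, 7 members were called higher (13.5% of all genes tested) and 0 lower (5.09% of all genes), with a median log2 fold change of 1.87 beside 0.29 over all genes. The error of this comparison is the spread between samples of the same line and not that between lines. The 6 PRC2-null samples all lay above the 6 PRC2-retaining samples for LAMA1, LAMA4, LAMA5, LAMB1, LAMB2, LAMC1 and HSPG2, 7 of the 10 members, as they did for 24.2% of all genes tested. In bulk samples such as these, a change in the share of cells that express a gene and a change in the RNA per cell cannot be told apart.

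**Figure D1:**
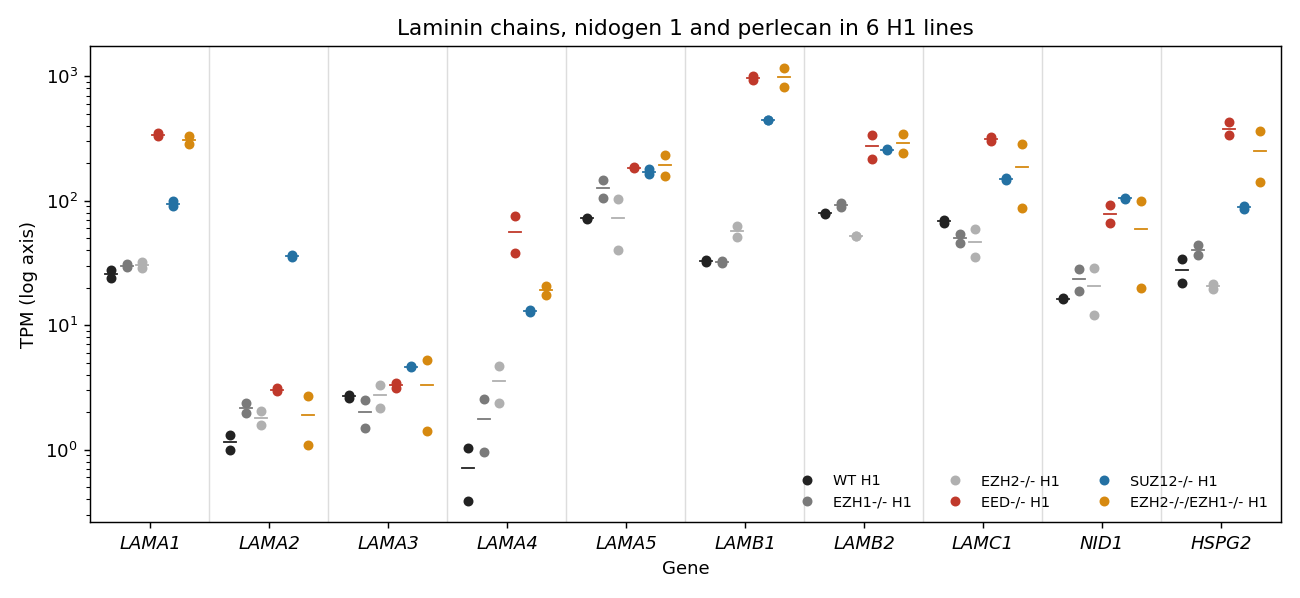
Each point is the TPM (log axis) of a gene in 1 sample of the 6 H1 lines, and short bars are the mean of the 2 samples of a line. For LAMB1 the 6 PRC2-null samples sit between 442.14 and 1174.22 TPM and the 6 PRC2-retaining samples between 31.5 and 62.49; for LAMA3 both sets lie between 1.41 and 5.24.

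Of the alpha chains, LAMA1, the chain of the early embryonic laminin, was at 27.92 and 24.11 TPM in WT H1, at 331.71 and 347.21 in EED-/- H1, at 98.95 and 90.41 in SUZ12-/- H1 and at 286.11 and 330.63 in EZH2-/-/EZH1-/- H1. All 4 samples of EZH1-/- and EZH2-/- H1 were between 29.02 and 32.05, close to WT H1, and all 6 PRC2-null samples were at 90.41 or more. The log2 fold changes of EED-/-, SUZ12-/- and EZH2-/-/EZH1-/- H1 against WT H1 were 3.66 ± 0.17 (SE, adjusted p = 1.221e-07), 1.83 ± 0.17 (9.447e-06) and 3.52 ± 0.17 (2.256e-07).

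LAMA4, the chain of vessels and mesenchyme, started from 1.03 and 0.39 TPM in WT H1. It was at 74.93 and 37.86 TPM in EED-/- H1, at 12.88 and 13.29 in SUZ12-/- H1 and at 20.66 and 17.58 in EZH2-/-/EZH1-/- H1, and no PRC2-null sample reached down to the PRC2-retaining samples, of which the highest was an EZH2-/- H1 sample at 4.71. Its log2 fold changes were 5.01 ± 0.41 (SE, adjusted p = 4.621e-06), 3.07 ± 0.41 (0.0001468) and 3.58 ± 0.41 (6.397e-05), in the same order of lines.

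LAMA2, the chain of muscle and nerve laminins, rose in SUZ12-/- H1. There it was at 36.49 and 35.59 TPM, against 1.31 and 0.99 in WT H1, and the log2 fold change was 4.11 ± 0.30 (SE, adjusted p = 2.462e-06). The PRC2-retaining samples ran from 0.99 to 2.38 TPM, and EZH2-/-/EZH1-/- H1, at 2.71 and 1.09, overlapped them. EED-/- H1, at 3.11 and 2.95, lay a little above them but was not called (0.91 ± 0.30, SE, adjusted p = 0.02734).

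LAMA5 was the most abundant alpha chain of WT H1, at 71.88 and 72.48 TPM. It was at 185.31 and 181.91 TPM in EED-/- H1, at 178.95 and 164.17 in SUZ12-/- H1 and at 233.40 and 157.12 in EZH2-/-/EZH1-/- H1. These levels lay above those of the PRC2-retaining lines, the highest of which was 145.78 in EZH1-/- H1, but the log2 fold changes against WT H1, 1.34 ± 0.36, 1.24 ± 0.36 and 1.39 ± 0.36 (SE; adjusted p = 0.01045, 0.01676 and 0.009942), were below the fold required, and the first and second also missed the FDR. LAMA3, the epithelial chain, stayed low in every line, between 1.41 and 5.24 TPM over the 12 samples, and the averages of the PRC2-null and PRC2-retaining lines differed by 0.41 ± 0.23 on the log2 scale (SE, adjusted p = 0.141).

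LAMB1, the beta chain that pairs with LAMA1 in the early embryonic laminin, had the highest level of all members in the PRC2-null lines. It went from 32.08 and 33.72 TPM in WT H1 to 936.30 and 996.27 in EED-/- H1, 442.14 and 444.23 in SUZ12-/- H1 and 1174.22 and 814.40 in EZH2-/-/EZH1-/- H1. These are log2 fold changes of 4.83 ± 0.19 (SE, adjusted p = 6.933e-08), 3.71 ± 0.19 (3.604e-07) and 4.85 ± 0.19 (8.495e-08). EZH1-/- H1, at 31.50 and 33.02, was at the WT level, while EZH2-/- H1 was at 62.49 and 51.02, above both WT samples, but the log2 fold change, 0.76 ± 0.19 (SE), did not pass the test (adjusted p = 0.3766).

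LAMB2, the beta chain of neuromuscular and kidney basement membranes, was at 78.70 and 79.53 TPM in WT H1. In the PRC2-null lines it reached 338.31 and 216.15 (EED-/-), 258.28 and 255.82 (SUZ12-/-) and 243.65 and 342.88 (EZH2-/-/EZH1-/-), and the 3 lines overlapped. Its log2 fold changes of 1.76, 1.69 and 1.86 (SE 0.23 each; adjusted p = 9.243e-05, 0.0001364 and 8.624e-05) lay just above the fold required. TPM values are shares of a fixed total, and scaling them by median ratios instead moved the median log2 fold change of all genes from 0.36 to 0.07 in EED-/- H1, from 0.22 to 0.08 in SUZ12-/- H1, from 0.19 to 0.08 with both methyltransferases deleted and from 0.29 to 0.08 between the PRC2-null and PRC2-retaining lines. The share of called genes that were higher then went from 72.7% to 58.0% in EED-/- H1. Under it LAMB2 fell short of the fold in EED-/- H1 (1.367), as it also did without EED-/- replicate 1 (1.439), and in SUZ12-/- H1 (1.505), as HSPG2 did in SUZ12-/- H1 (1.476), and LAMC1 (1.574) and NID1 (1.58) did between the averages of the PRC2-null and PRC2-retaining lines. No called member changed direction under that scaling.

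LAMC1, the gamma chain that most laminins share, was at 66.63 and 69.63 TPM in WT H1 and was called higher in EED-/- H1, at 301.86 and 325.13 (log2 fold change 2.19 ± 0.43 SE, adjusted p = 0.001598). Without any 1 of the 4 samples of these lines the adjusted p was between 0.0118 and 0.01436 and the call was lost. SUZ12-/- H1, at 146.64 and 150.94, was above both WT samples but was not called (1.12 ± 0.43, adjusted p = 0.05315). The samples of EZH2-/-/EZH1-/- H1 were far apart, at 285.33 and 86.90. Without replicate 2 of that line LAMC1 was called there (2.05, adjusted p = 0.0002062), whereas with both samples it was not (1.199, adjusted p = 0.04237).

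NID1, the nidogen that links laminin to collagen IV, also had a wide gap within EZH2-/-/EZH1-/- H1, with 99.31 and 19.83 TPM, the latter within the range of the PRC2-retaining samples (12.07 to 28.97). It was called in SUZ12-/- H1 at 105.51 and 103.61 TPM (2.60 ± 0.60 SE, adjusted p = 0.004561), though not when any 1 of the SUZ12-/- or WT H1 samples was left out (adjusted p = 0.02499 to 0.02866). In EED-/- H1 it was at 65.80 and 91.71, against 16.29 and 16.47 in WT H1, and just missed the test (2.18 ± 0.60, adjusted p = 0.01102). It passed without replicate 1 or 2 of EZH2-/-/EZH1-/- H1 (adjusted p = 0.0004836 and 0.0004772). Without replicate 2 of EZH2-/-/EZH1-/- H1 NID1 was also called in that line (2.53, adjusted p = 0.001111), against 1.40 with both. Between the PRC2-null and PRC2-retaining averages, LAMC1 and NID1 both stood at 1.84, and both fell below the fold without replicate 1 of EZH2-/-/EZH1-/- H1 (1.55 and 1.46).

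HSPG2, perlecan, was at 33.98 and 21.95 TPM in WT H1, at 425.33 and 335.46 in EED-/- H1, at 86.04 and 90.58 in SUZ12-/- H1 and at 361.52 and 141.35 in EZH2-/-/EZH1-/- H1. Every PRC2-null sample was above every PRC2-retaining sample, of which the highest was 43.77. The log2 fold changes were 3.74 ± 0.37 (SE, adjusted p = 1.399e-05), 1.66 ± 0.37 (0.003517) and 3.003 ± 0.365 (8.812e-05), and in SUZ12-/- H1 the call was lost without WT replicate 2 (1.35, adjusted p = 0.04088), without SUZ12-/- replicate 1 (adjusted p = 0.02019) and without SUZ12-/- replicate 2 (adjusted p = 0.02449). In EZH2-/-/EZH1-/- H1 it was lost when that line was fitted with WT H1 alone (adjusted p = 0.01136).

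**Figure D2:**
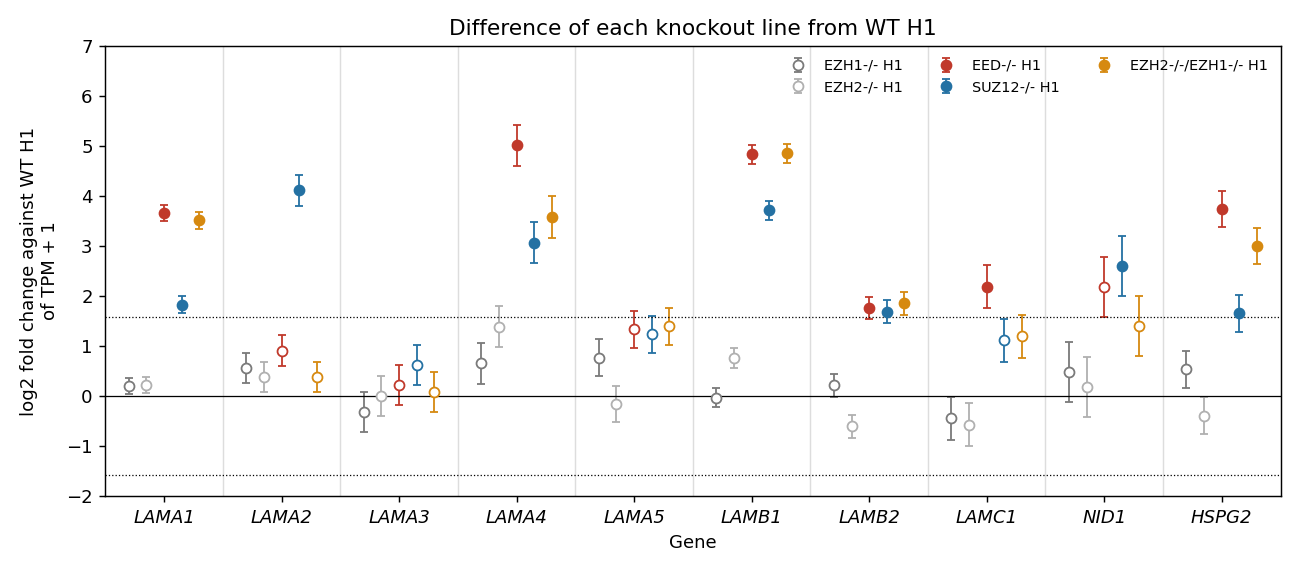
Log2 fold change of TPM + 1 against WT H1 (y axis) for each gene in the 5 knockout lines, with the limma SE as error bars; filled points are called (FDR of 1%, 3-fold, dotted lines), open points are not. LAMB1 stands at 4.83, 3.71 and 4.85 in the PRC2-null lines, and no point of EZH1-/- or EZH2-/- H1 is filled.

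In EZH1-/- H1 the members lay between -0.44 and 0.77 on the log2 scale relative to WT H1. None was called by limma, none had an unadjusted p under 0.05, and 0.0995% of all genes tested were called in either direction (16.0% had an unadjusted p under 0.05). In EZH2-/- H1 the members lay between -0.60 and 1.39, and none was called, as for all genes tested (0%). Here 3 members had an unadjusted p under 0.05, LAMA4 and LAMB1 higher and LAMB2 lower, beside 5.81% of all genes tested. LAMA4 was at 4.71 and 2.38 TPM in EZH2-/- H1, against 1.03 and 0.39 in WT H1. LAMB2 was at 51.67 and 51.77, against 78.70 and 79.53. LAMA4 differed by 1.39 ± 0.41 (SE, adjusted p = 0.5159) and LAMB2 by -0.60 ± 0.23 (adjusted p = 0.7225). The direction of LAMA4, LAMB1 and LAMB2 in EZH2-/- H1 was the same under each alternative run.

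Among the PRC2-null lines, SUZ12-/- H1 differed from both others in LAMA1 and LAMA2, and from EED-/- H1 also in LAMA4 and perlecan. SUZ12-/- H1 had less LAMA1 than EED-/- H1 (log2 difference -1.83 ± 0.17 SE, adjusted p = 4.32e-05) and than EZH2-/-/EZH1-/- H1 (-1.69 ± 0.17, adjusted p = 8.234e-05), and more LAMA2 than either (3.20 ± 0.30, adjusted p = 5.863e-05, and 3.73 ± 0.30, adjusted p = 2.401e-05). Against EED-/- H1, LAMA2 was the 1 member called higher (3.54% of all genes tested) and LAMA1, LAMA4 and HSPG2 were the 3 called lower (2.58% of all genes). Against EZH2-/-/EZH1-/- H1, LAMA2 was again called higher (3.32% of all genes) and LAMA1 lower (1.14%). LAMB1 was lower in SUZ12-/- H1 in both comparisons, by log2 differences of -1.12 and -1.14 (SE 0.19 each; adjusted p = 0.002263 and 0.002729), which is below the fold required. Between EZH2-/-/EZH1-/- H1 and EED-/- H1 no member was called by limma, 2 had an unadjusted p under 0.05 (LAMA4 and LAMC1, both lower in EZH2-/-/EZH1-/- H1; 20.1% of all genes), and 0.089% of all genes tested were called in either direction. With median-ratio scaling the share of called genes that were higher in SUZ12-/- than in EED-/- H1 went from 57.8% to 70.0%. The differences in LAMA1 and LAMA2 kept their calls under each alternative run. That in LAMA4 (-1.95 ± 0.41, adjusted p = 0.007775) lost its call in 7 of 16 alternatives, with 12.88 and 13.29 TPM in SUZ12-/- H1 against 74.93 and 37.86 in EED-/- H1. Without EED-/- replicate 1, the higher of these, it was -1.46 (adjusted p = 0.08047), and the highest adjusted p without any other single sample was 0.06351, without SUZ12-/- replicate 1. That in HSPG2 (-2.08 ± 0.37, adjusted p = 0.00265) lost it when any 1 of the 4 samples was left out (adjusted p = 0.01218 to 0.03329).

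Since laminins are trimers, the levels of the alpha chains and of the beta chains, with LAMB3 and LAMB4 added, were also summed, as a description without a test. In WT H1 the alpha chains summed to 104.75 and 100.71 TPM and the beta chains to 111.73 and 113.90, so the classes were close to even. In EED-/- H1 the alpha chains summed to 598.47 and 573.08 and the beta chains to 1285.75 and 1218.46. The alpha chains summed to 331.85 and 308.18 in SUZ12-/- H1 and to 548.12 and 507.83 in EZH2-/-/EZH1-/- H1, and the beta chains to 744.75 and 743.42 and to 1423.93 and 1162.06, so that beta chain RNA was 2.13 to 2.6 times alpha chain RNA in the 6 PRC2-null samples. In the 6 PRC2-retaining samples this ratio ran from 0.71 to 1.42, with WT H1 at 1.07 and 1.13, and the ranges did not overlap.

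The make-up of the classes differed as well. LAMB2 was 70.4% and 69.8% of the beta chain RNA of WT H1 and LAMB1 28.7% and 29.6%, whereas LAMB1 was 59.4% to 82.5% in the 6 PRC2-null samples. EZH2-/- H1 stood between, with 54.4% and 49.4%, and EZH1-/- H1 was at 26.0% and 25.4%. LAMA5 was 68.6% and 72.0% of the alpha chain RNA of WT H1. In EED-/- H1 LAMA1 made up 55.4% and 60.6% and LAMA5 31.0% and 31.7%, and in EZH2-/-/EZH1-/- H1 LAMA1 made up 52.2% and 65.1%. In SUZ12-/- H1 LAMA5 still led with 53.9% and 53.3%, LAMA1 was at 29.8% and 29.3%, and LAMA2 reached 11.0% and 11.5%, against at most 2.5% in the other lines. The LAMA1 share of SUZ12-/- H1 lay within the range of the PRC2-retaining samples, where EZH2-/- replicate 1, with its low LAMA5 (39.92 TPM), was highest at 39.6%.

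After DOX was withdrawn from EED-/-/EED-OE H1 cells, LAMB1 and LAMA4 were above 3 times their TPM with DOX in the sample of every day. LAMB1 was at 24.78 TPM with DOX and at 82.27, 96.94, 95.31, 190.13, 501.08 and 853.91 at days 8, 12, 16, 20, 24 and 28, which is 3.32 times its DOX level at day 8 and 34.5 times at day 28. LAMA1 was at 31.82 with DOX and then at 25.82, 44.81, 49.25, 86.35, 83.99 and 274.52, so the larger part of its increase fell between days 24 and 28. HSPG2 was at 61.26 with DOX and at 37.71, 49.77, 55.61, 78.58, 213.57 and 335.64, below its DOX level up to day 16.

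With 1 sample per time point, differences from the DOX sample have no replicate check, and a 3-fold difference on the log2(TPM + 1) scale was used as a rule of size. At day 8 LAMB1 was the 1 member past it (1.69 higher), beside 2.93% of the genes compared. At day 28 there were 7, LAMA1, LAMA3, LAMA4, LAMB1, LAMC1, NID1 and HSPG2, beside 18.8% of the genes. LAMB2 was lower than with DOX (114.34 TPM) at 95.43, 76.86 and 36.54 on days 8, 12 and 16, then at 90.35, 200.22 and 257.12.

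LAMC1 went from 35.58 TPM with DOX to 38.67, 61.94, 66.03, 135.10, 241.98 and 206.74, and NID1 from 13.87 to 22.32, 45.55, 35.05, 64.97, 111.95 and 72.64, both highest at day 24. LAMA5 had no such course, with 125.59 with DOX, 223.06 at day 8, 77.18 at day 16 and 220.67 at day 28. LAMA4 was at 0.91 with DOX, between 2.77 and 6.40 on days 8 to 24 and at 17.68 on day 28, or from 3.04 to 19.4 times its DOX level, of which days 20 and 28 passed 3-fold once 1 TPM was added. LAMA2 was high in a single sample, day 20, at 17.61 TPM, and at most 4.54 in the other 6, and LAMA3 was at most 5.14 TPM.

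In the straight-line fit over the 6 days without DOX, 4 members were called as rising, LAMA1, LAMB1, LAMC1 and HSPG2, beside 1.36% of the 17099 genes tested. Their estimated changes over the 20 days were 2.90 ± 0.43, 3.55 ± 0.50, 2.69 ± 0.36 and 3.19 ± 0.42 on the log2 scale (SE), with adjusted p from 0.008796 to 0.009896, close to the 1% threshold. The error of this fit is the scatter of 1 sample per day around a straight line, and not the spread between replicate cultures. The calls depended on single days. Without day 8, 12, 24 or 28 no member was called by limma, without day 16 there was 1 and without day 20 there were 3, while the direction of these 4 genes was the same each time. With median-ratio scaling no member was called either (adjusted p = 0.0103 to 0.01235), and the calls over all genes went from 232 rising and 114 falling to 23 rising and 23 falling. NID1 (1.86 ± 0.46, adjusted p = 0.03197) and LAMB2 (1.79 ± 0.76, adjusted p = 0.1315) did not pass, and 6 members had an unadjusted p under 0.05, as did 37.0% of all genes tested.

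The make-up of the chain classes was also followed over time. LAMB1 was 17.8% of beta chain RNA with DOX, 46.0% at day 8, 72.0% at day 16, 67.6% at day 20 and 76.7% at day 28. LAMA1 was 19.6% of alpha chain RNA with DOX and did not rise steadily. Its share was lower than with DOX at day 8, then 21.4% at day 12 and 36.5% at day 16. At day 24 it was 39.7%, below its share at day 20. At day 28 it was 52.8%, below both samples of EED-/- H1 (55.4% and 60.6%) and between those of EZH2-/-/EZH1-/- H1 (52.2% and 65.1%).

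**Figure D3:**
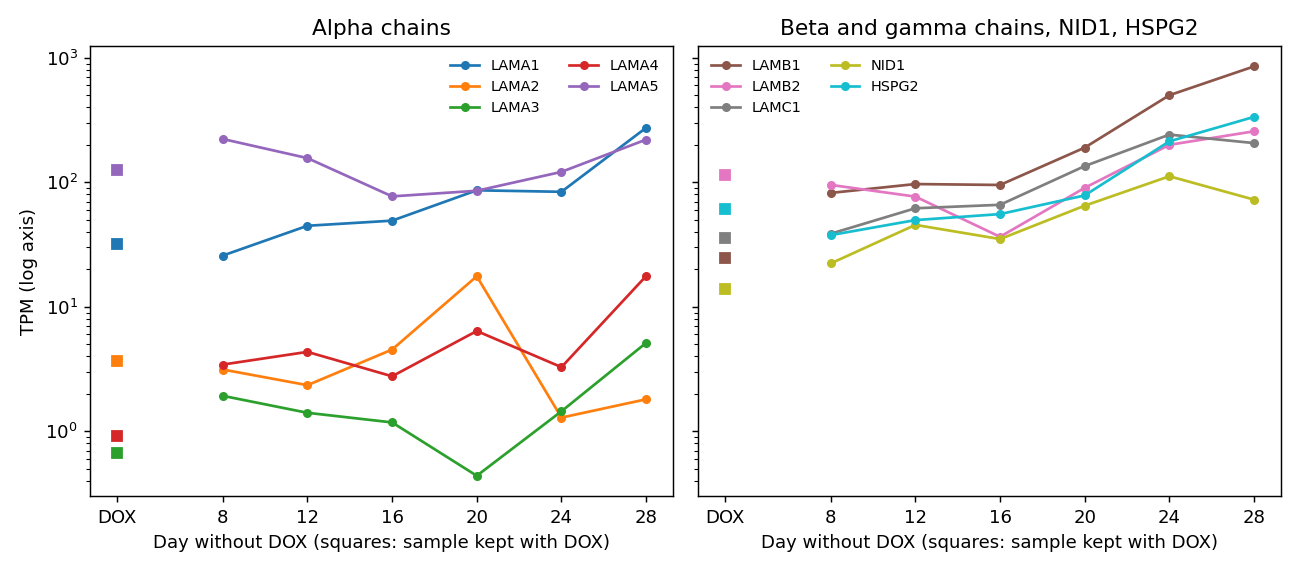
TPM (log axis) of the alpha chains (left) and of the other members (right) in EED-/-/EED-OE H1 cells with DOX (squares) and at days 8 to 28 without it (joined points), 1 sample each. LAMB1 goes from 24.78 TPM with DOX to 853.91 at day 28, and LAMA2 is high at day 20 only (17.61 TPM).

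Across all 19 samples, LAMA1 and LAMB1 were the pair of members with the highest Pearson correlation of log2(TPM + 1), 0.947, followed by LAMA1 and HSPG2 (0.925) and LAMA1 and LAMA4 (0.913). LAMA2 had at most 0.515 with any member, with NID1. Among 19711 genes that reached 1 TPM in 2 or more samples, those most like LAMB1 were CAPN2 (0.984), a calpain protease, and HOXD10 (0.983), a homeobox factor. Those most like LAMA1 were HHAT, an acyltransferase of hedgehog proteins, and EPSTI1 (both 0.982), those most like LAMC1 were CALU (0.978), a calcium-binding protein of the secretory pathway, and PXDN (0.975), the peroxidase that crosslinks collagen IV, and those most like LAMB2 were TIMP1 (0.954), a metalloproteinase inhibitor, and VIM (0.952), the mesenchymal intermediate filament. For the other members they were LYPD2 (0.942) and MFAP4 (0.941) for LAMA2, LYRM2 (0.839) and GVQW1 (0.836) for LAMA3, FZD1 (0.957) and OSBPL3 (0.953) for LAMA4, DECR2 (0.939) and TNFRSF25 (0.889) for LAMA5, PXK (0.956) and TMED7-TICAM2 (0.945) for NID1, and RUSC2 (0.981) and JUP (0.974) for HSPG2. These correlations are descriptions, since the samples include replicates of a line and share the split between PRC2-null and other cells.

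Among the other laminin chains, LAMB3 and LAMB4 were called higher in the PRC2-null than in the PRC2-retaining lines and LAMC3 was not called. LAMB3, the beta chain of the epithelial laminin, was highest in SUZ12-/- H1, at 38.89 and 39.08 TPM, against 0.36 and 0.78 in WT H1 (4.68 ± 0.36, SE, adjusted p = 3.285e-06). LAMC3 fell in EED-/- H1, from 12.48 and 15.82 TPM to 2.32 and 2.77 (-2.09 ± 0.27, adjusted p = 0.0001058), and in EZH2-/-/EZH1-/- H1, to 2.04 and 3.39 (-2.04 ± 0.27, adjusted p = 0.0001626), while SUZ12-/- H1, at 21.35 and 23.48, was not called.

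Of 25 other basement membrane matrix genes, 21 were called higher in the PRC2-null lines and 0 lower (median log2 fold change 2.97). Of all genes tested, 13.5% were called higher and 5.09% lower in this comparison (median 0.29). The lists in this paragraph were chosen with earlier results of these data known. The largest rises were in COL15A1, a vessel-associated collagen (6.40 ± 0.30, SE, adjusted p = 2.33e-08), NPNT, the integrin ligand nephronectin (5.74 ± 0.24, 1.2e-08), and COL4A1, the collagen IV chain (5.01 ± 0.28, 8.63e-08). COL4A1 was at 30.36 and 33.05 TPM in WT H1 and at 2103.90 and 2946.14 in EED-/- H1, 876.45 and 894.00 in SUZ12-/- H1 and 420.49 and 1808.86 in EZH2-/-/EZH1-/- H1. Of 20 receptors of laminin and basement membrane, 8 were called higher and 0 lower (median 1.39), led by ITGA1, a subunit of a collagen and laminin receptor (4.05 ± 0.24, 1.264e-07), ITGAV (3.84 ± 0.22, 8.493e-08) and the glypican GPC3 (3.15 ± 0.23, 5.037e-07). Of 20 genes of matrix assembly and crosslinking, 13 were called higher and 0 lower (median 1.91), led by the lysyl oxidase LOX (6.22 ± 0.20, 2.329e-09), the transglutaminase TGM2 (5.28 ± 0.20, 6.208e-09) and LOXL4 (4.80 ± 0.14, 1.25e-09).

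Markers of cell types that make much basement membrane moved with the members. These marker lists were also chosen with earlier results known, and 13.5% of all genes tested were called higher in the PRC2-null lines and 5.09% lower. Of 8 endoderm markers 8 were called higher in the PRC2-null lines, and their summed level was 8.06 to 17.86 TPM in the PRC2-retaining and 1579.76 to 20219.29 in the PRC2-null samples, with TTR at 0 in all 6 PRC2-retaining samples. Of 7 endothelium markers 5 were called higher and 0 lower, but the summed levels overlapped (47.11 to 147.19 and 61.35 to 545.45 TPM), and EMCN was at 0 in all 6 PRC2-retaining samples. Of 9 smooth muscle and fibroblast markers 7 were called higher and 1, THY1, lower, with sums of 869.05 to 1116.46 and 9107.67 to 17938.28 TPM, and COL3A1 was at 0 in 2 of the PRC2-retaining samples and at most 0.22 in the rest. All 6 trophoblast markers were called higher (sums of 12.15 to 14.84 and 219.67 to 433.47 TPM; HAND1 at 0 in the 6 PRC2-retaining samples), and all 6 markers of pluripotent cells were called lower (5261.76 to 6523.56 and 129.16 to 438.82 TPM). Over the time course these sums moved as well, but not at the same days, and each day had 1 sample. With DOX, at day 8 and at day 28 the endoderm sum was 6.97, 10.48 and 1408.59 TPM, the trophoblast sum 14.27, 51.11 and 126.77, and the endothelium sum 45.92, 70.92 and 350.08. At days 12, 16, 20 and 24 the trophoblast sum was 27.72, 14.29, 595.07 and 218.13, highest at day 20. The endothelium sum at these days was 162.82, 196.06, 151.89 and 582.55, highest at day 24. With DOX, at day 8 and at day 28 the smooth muscle and fibroblast sum was 1339.85, 414.95 and 10249.59 TPM and the pluripotent sum 4777.45, 4992.42 and 438.78. The former was still below its DOX level at day 20 (900.78). The pluripotent sum was at 5665.16 and 5564.19 at days 12 and 16 and first below its DOX level at day 20 (2497.69). The part of these cell types in the levels of the basement membrane genes was not tested.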

How the data were processed

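RNA of 19 samples was measured by RNA-seq. Per the labels and the methods, the authors made libraries with an Illumina TruSeq RNA kit, quantified the reads with RSEM and Bowtie on the mRNA of GRCh38 and deposited TPM per gene. The methods also name EDASeq, and whether it entered these values is not stated; the submitters' processing notes also name hg19. Depth is not given by TPM, so no interval or floor that needs it is printed. The authors describe edgeR on raw counts; since TPM are no counts, limma 3.58.1 in R 4.3.3 (trend and robust options) was fitted to log2(TPM + 1) of the 19100 genes that reached 1 TPM in 2 or more of the 12 line samples, with a mean per line and 6 residual degrees of freedom. Calls needed an FDR of 1% (Benjamini-Hochberg) and a 3-fold difference. A second limma fit took the slope on the day over 6 samples. The 10 members and all gene and marker lists were chosen with earlier results of these data known. Genes were named by a rule: all members, the 2 genes most like each, and up to 3 rises and 3 falls per list. The steps were tested on simulated data: for EED-/- against WT H1 (17714 genes), 56% of changes of 2 and 85% of changes of 3 on the log2 scale were recovered, with 1 false call, and for the trend (16504 genes) 3% and 35%, with 0. In each simulation 200 genes were changed and the noise was independent and normal, whereas 4263 genes were called in EED-/- H1. These rates therefore need not hold for the data. Alternatives were other filters, a pseudocount of 0.1, median-ratio scaling, an FDR of 5%, a replicate block, fits of 4 samples, and leaving out each sample or day. Python 3.11.15, numpy 2.4.6, pandas 2.3.3 and matplotlib 3.10.9 were used.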

Additional observations from a re-analysis of the deposited data

Results flagged for a closer look

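SUZ12-/- H1 differed from the other PRC2-null lines in some of the members, and these differences were tested directly with limma. SUZ12-/- H1 was below EED-/- H1 in LAMA1 by a log2 difference of -1.832, in LAMA4 by -1.947 and in HSPG2 by -2.085, and above it in LAMA2 by 3.2. It was below EZH2-/-/EZH1-/- H1 in LAMA1 by -1.691 and above it in LAMA2 by 3.733. The calls in LAMA1 and LAMA2 held in all alternatives, while against EED-/- H1 that in LAMA4 held in 9 of 16 and that in HSPG2 in 13 of 17. Between EZH2-/-/EZH1-/- and EED-/- H1 no member was called. The 6 differences of SUZ12-/- H1 were listed because limma called them. That its 2 samples lay on the same side of both samples of the other line therefore adds no support. No group had 4 or more samples, so single samples were not tested as outliers.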

How the results depend on the processing

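Over 35 called differences among 100 member values in 10 comparisons, none changed sign in any alternative, and of all 100 values, 22 changed sign, the largest of which was 0.784 in size. In the 7 comparisons with calls, those that held throughout were 4 of 6 in EED-/- H1, 4 of 7 in SUZ12-/- H1, 4 of 5 in EZH2-/-/EZH1-/- H1, 5 of 7 between PRC2-null and PRC2-retaining lines, 2 of 4 and 2 of 2 for SUZ12-/- H1 against the other null lines, and 0 of 4 in the trend. The number called against WT H1 was never more than 1.5 times off. For the trend it was 0 with no filter on low TPM, 0 with median-ratio scaling, 0 with days 20, 24 and 28 set against days 8, 12 and 16, and 0 to 3 with each day left out, beside 4. By construction, the filter of at least 1 TPM in all 12 samples left LAMA2 and LAMA4 untested. Deviations of same-numbered samples of WT, EED-/- and EZH2-/-/EZH1-/- H1 correlated at 0.041, 0.047 and -0.077, so the numbers are not taken to pair the samples of these lines, the others were not checked, and with the replicate block the counts were 6, 7, 5, 0, 0 and 7, as without it. Depth is unknown and sets no stated limit. Over all genes, calls moved by over 1.5 times when 1 TPM in all 12 samples was required (4263 to 2457 in EED-/-, 3763 to 1847 in SUZ12-/-, 3301 to 1850 in EZH2-/-/EZH1-/- against WT H1, and 3551 to 1812 between PRC2-null and PRC2-retaining lines, where a pseudocount of 0.1 gave 5593), with 4 samples only (1908 in EZH2-/-/EZH1-/-, 166 against 19 in EZH1-/- H1), in EZH1-/- H1 without 1 sample (0 to 42), in EZH2-/- H1 without its replicate 1 (9 against 0), and in SUZ12-/- H1 against EED-/- H1 without a SUZ12-/- sample (384 and 390) or with the filter in all 12 samples (414), against 1169. Against EZH2-/-/EZH1-/- H1 the same changes gave 223, 237 and 241, and leaving out its replicate 1 gave 1663, against 852. EZH2-/-/EZH1-/- against EED-/- H1 went from 17 to 737 without EZH2-/-/EZH1-/- replicate 1, where LAMC1 was called lower (-1.838), and to between 1 and 92 in other alternatives. The trend went from 346 to 2 with no filter, to 46 with median-ratio scaling, to 203 with late set against early days, to 134 without day 16 and to 0 without day 8, 12, 24 or 28.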
